A study of Mus musculus with 14 samples.

Results

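The data were read for 7 members of 3 families of G protein-coupled receptors across the arrays, namely the Mas-related receptors Mrgprb1 and Mrgprb2, the adenosine receptors Adora2a, Adora2b and Adora3, and the complement receptors C3ar1 and C5ar1. Every probe carrying one of these 7 names in the scanner files was taken, which gave 11 probes of 41174 on the array and 7 genes of 27975 named on it. All 14 arrays measured total RNA from cultures of mouse mast cells. Knockout cocultured cells filled 3 arrays, wild-type cocultured cells 4, knockout BMMCs 4 and wild-type BMMCs 3. BMMCs are immature mast cells derived from marrow in IL-3, here over 4 to 6 weeks per the labels. The cocultured cells were such BMMCs kept for 96 h on a monolayer of Swiss 3T3 cells, a mouse fibroblast line, with 100 ng/ml stem cell factor (SCF), the ligand of Kit. Fibroblasts and SCF came together in coculture and were absent before it, so their parts cannot be told apart. Knockout cells came from Pla2g3-/- mice, which lack the group III secreted phospholipase A2, and wild-type cells from Pla2g3+/+ mice. All 4 groups carried the same strain label, that of a backcross onto C57BL/6. Whether replicates are separate mice or separate cultures is not in the labels, so the p-values cover only the spread among these arrays, which may be technical.

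The receptors differ in what they bind. Mrgprb2 is the mouse receptor through which basic secretagogues and some peptides degranulate connective tissue mast cells without IgE, and Mrgprb1 is encoded near it in the same gene cluster. Adenosine is released by stressed cells and by breakdown of extracellular ATP. Adora2a and Adora2b couple mainly to Gs and raise cyclic AMP, Adora2b also signals through Gq in a human mast cell line, and Adora3 couples to Gi and enhances degranulation of mouse mast cells. C3ar1 and C5ar1 bind the complement fragments C3a and C5a, which recruit and activate myeloid cells.

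Levels are given on the log2 scale relative to the 75th percentile of all probes on the same array, so a level of 0 is the 75th percentile itself. That percentile was 65.9 to 171 intensity units, and 43.0% to 55.9% of probes were called well above background by the scanner software. A probe was kept if it was well above background on at least 3 arrays, which left 23245 probes and 15848 genes. A gene was called where limma gave an adjusted p under 0.05 over those genes, and "rose" and "fell" refer to that threshold. A pair of cocultured arrays stood apart from their groups. Across genes, wild-type cocultured array 3 correlated at 0.895 to 0.916 with its own group and at up to 0.978 with knockout cocultured arrays. Knockout cocultured array 3 correlated at 0.913 to 0.916 with its own group and at up to 0.974 with wild-type cocultured arrays. Both lay on slide 4, and the coculture differences and the cocultured genotype differences of the receptors tested are also given without them. Whether the labels of these 2 arrays were exchanged was not tested, and an exchange would alter every genotype value after coculture. Kit and Fcer1a, the markers the cells were checked for, were well above background on all arrays, at mean levels of 7.12, 6.85, 7.08 and 7.07 for Kit in knockout cocultured, wild-type cocultured, knockout BMMC and wild-type BMMC arrays. The Pla2g3 probe had higher mean levels in the knockout groups, at -3.13 to -1.70 in knockout cocultured cells against -4.23 to -2.13 in wild-type cocultured cells, and at -1.92 to -1.27 in knockout BMMCs against -4.63 to -2.91 in wild-type BMMCs. It read -1.88 on the array labelled knockout cocultured 3 and -4.07, not above background, on that labelled wild-type cocultured 3. Whether this probe lies in the deleted part is not given in the sources used here, so it checks no label, and the genotype directions below rest on the labels alone.

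The Mas-related probes are shown first, because the largest differences among the 7 genes were read from them. They are the 60-base probes in the scanner files, in lower case from the 5′ end, and the last is that of Mrgprb3, a neighbouring gene of the same family whose levels followed those of Mrgprb2 most closely.
Mrgprb1: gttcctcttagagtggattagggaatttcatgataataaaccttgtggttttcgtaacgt
Mrgprb2: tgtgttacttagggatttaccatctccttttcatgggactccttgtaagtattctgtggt
Mrgprb3: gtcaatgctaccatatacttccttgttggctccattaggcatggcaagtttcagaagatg
On mm9 the Mrgprb1 probe lies at chr7:55702712-55702771, the Mrgprb2 probe at chr7:55807084-55807143 and the Mrgprb3 probe at chr7:55898305-55898364, all on the minus strand. The Mrgprb1 and Mrgprb2 probes share no run longer than 7 bases, and at their best ungapped offset 24 bases match. Cross-hybridisation between members of this cluster was not tested.

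Mrgprb1 was detected after coculture and not before it. In knockout cocultured cells its levels were -1.72, -4.10 and 2.06, the second of them not above background, and in wild-type cocultured cells they were 0.91, 0.84, -2.92 and 0.91. In knockout BMMCs the probe read -6.51, -6.23, -4.73 and -6.69 and in wild-type BMMCs -5.72, -6.14 and -6.01, on no array well above background. All cocultured readings lay above all BMMC readings, but in knockout cells this does not show separate levels, since cocultured array 2 was not above background and the lowest signal counted as well above background on knockout BMMC 3 was -2.72. The cocultured readings themselves spread over more than 6 log2 units. Mrgprb1 passed the filter on dim probes only through cocultured arrays, so its entry into the test already rested on a higher signal there. Against the lowest signal that counted as well above background, Mrgprb1 was at least 6.44-fold higher in knockout cocultured cells than in knockout BMMCs. In wild-type cells the same bound was 15.1-fold. The knockout bound includes the reading of cocultured array 2, itself not above background, and neither bound was tested. The fitted differences, which use the readings below background as they are, were 4.79 in knockout cells (SE 1.23, adjusted p = 0.0221, limma with Benjamini-Hochberg adjustment) and 5.89 in wild-type cells (SE 1.23, adjusted p = 0.00743). Averaged over both genotypes the difference was 5.34 (SE 0.87, adjusted p = 0.000638). Without knockout and wild-type cocultured arrays 3 these were 3.13 (adjusted p = 0.00487) in knockout cells, 6.85 (adjusted p = 3.54e-05) in wild-type cells and 4.99 averaged. The call in knockout cells ended without knockout BMMC 1, 2 or 4 or knockout cocultured 1 or 3, at adjusted p of 0.0551, 0.0524, 0.0501, 0.0584 and 0.0511, and the call in wild-type cells held without any single array but ended with normexp background correction (1.52, adjusted p = 0.0932).

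**Figure D1:**
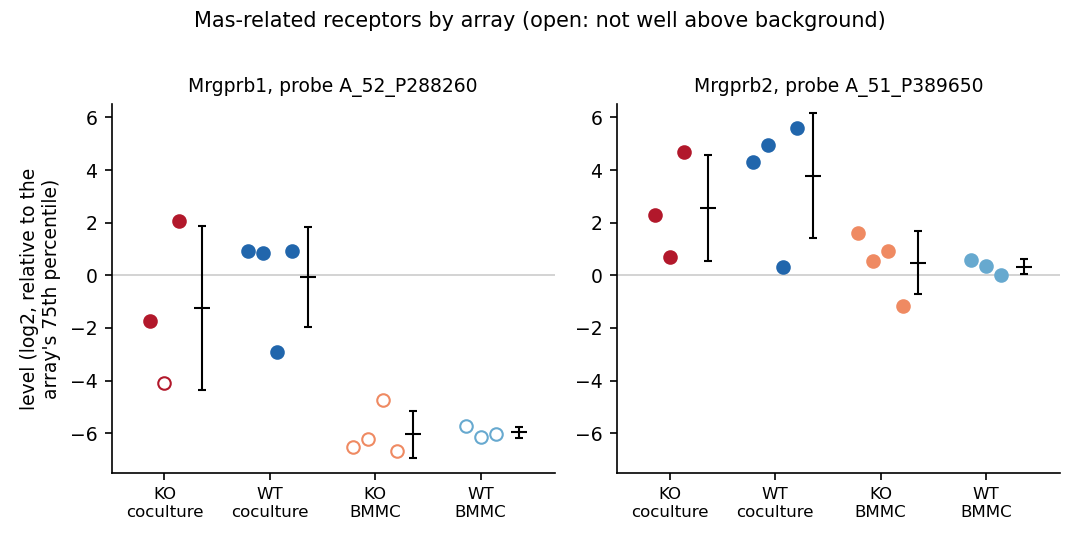
Levels of Mrgprb1 and Mrgprb2 on each array (log2, relative to the array's 75th percentile), with replicates in label order and the mean and SD of each group beside them. Filled points were well above background and open points were not, as for Mrgprb1 on all 7 BMMC arrays and on knockout cocultured array 2.

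Mrgprb2 was well above background on all 14 arrays, in immature cells too. In knockout cocultured cells its levels were 2.31, 0.70 and 4.69, and in wild-type cocultured cells 4.29, 4.94, 0.30 and 5.61. In knockout BMMCs they were 1.62, 0.53, 0.94 and -1.17, and in wild-type BMMCs 0.58, 0.36 and 0.02. In 4 cocultured arrays the level was above 4, and the other 3 reached into or near the range of the BMMCs, so cocultured and BMMC groups overlapped in both genotypes. Averaged over both genotypes Mrgprb2 rose by 2.78 (SE 0.83, adjusted p = 0.0230, limma), a 6.85-fold difference. Within one genotype it did not pass, at 2.08 (SE 1.17, adjusted p = 0.255) in knockout cells and 3.47 (SE 1.17, adjusted p = 0.0708) in wild-type cells. Without wild-type cocultured array 3 the wild-type difference was 4.63 and passed (adjusted p = 0.00449). The wild-type difference also passed without knockout cocultured 3, at an adjusted p of 0.0472. Without both cocultured arrays of slide 4 the knockout difference was 1.02 (adjusted p = 0.302). The averaged call ended without wild-type BMMC 3 (adjusted p = 0.0516) or knockout cocultured 3 (adjusted p = 0.0535), and without both arrays 3 of the cocultured groups it was 2.83 (adjusted p = 0.00134).

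Both receptors had their highest mean levels in the cocultured groups. Mrgprb1 averaged -1.25 ± 3.11 in knockout cocultured cells, -0.07 ± 1.91 in wild-type cocultured cells, -6.04 ± 0.89 in knockout BMMCs and -5.96 ± 0.22 in wild-type BMMCs (SD, n = 3, 4, 4 and 3). For Mrgprb2 the means were 2.56 ± 2.01, 3.79 ± 2.39, 0.48 ± 1.19 and 0.32 ± 0.28 in the same groups. Wild-type cocultured cells came first in each case and knockout cocultured cells next, and these neighbours differed by less than their SD, as did the 2 BMMC groups, whose order was not the same for both receptors. Across the 14 arrays the levels of Mrgprb1 and Mrgprb2 correlated at r = 0.913 (0.935 over the 12 arrays without knockout and wild-type cocultured 3), a description in which the split between cultures and the shared arrays enter.

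Signals of fibroblasts were higher after coculture too. Of 25 fibroblast markers, 15 to 22 were well above background in knockout cocultured cells and 16 to 24 in wild-type cocultured cells, against 2 to 6 in knockout BMMCs and 4 to 6 in wild-type BMMCs. Their summed level, in multiples of the 75th percentile, was 19.4, 31.6 and 77.0 in knockout cocultured cells and 140, 503, 20.3 and 158 in wild-type cocultured cells, against 3.29 to 6.84 in knockout BMMCs and 2.67 to 4.63 in wild-type BMMCs. The 4 cocultured arrays with the highest sums were also the 4 with the highest Mrgprb1 and Mrgprb2. The order differed within both sets of arrays. Among the 4, knockout cocultured array 3 had the lowest sum (77.0) and the highest Mrgprb1 (2.06). Wild-type cocultured array 2 had the highest sum (503) and the lowest Mrgprb1 of them (0.84). Among the 3 with lower sums, knockout cocultured array 2 had the highest sum and the lowest Mrgprb1. The part of fibroblast RNA in these levels was not tested, and no array held Swiss 3T3 cells alone. In bulk samples like these, fewer cells of a type and less RNA per cell cannot be told apart. Mast cell markers were well above background in 14 or 15 of 15 cases on every array, with summed levels of 1663 to 2802 in knockout cocultured cells, 1773 to 2520 in wild-type cocultured cells, 1358 to 1905 in knockout BMMCs and 1922 to 2276 in wild-type BMMCs.

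**Figure D2:**
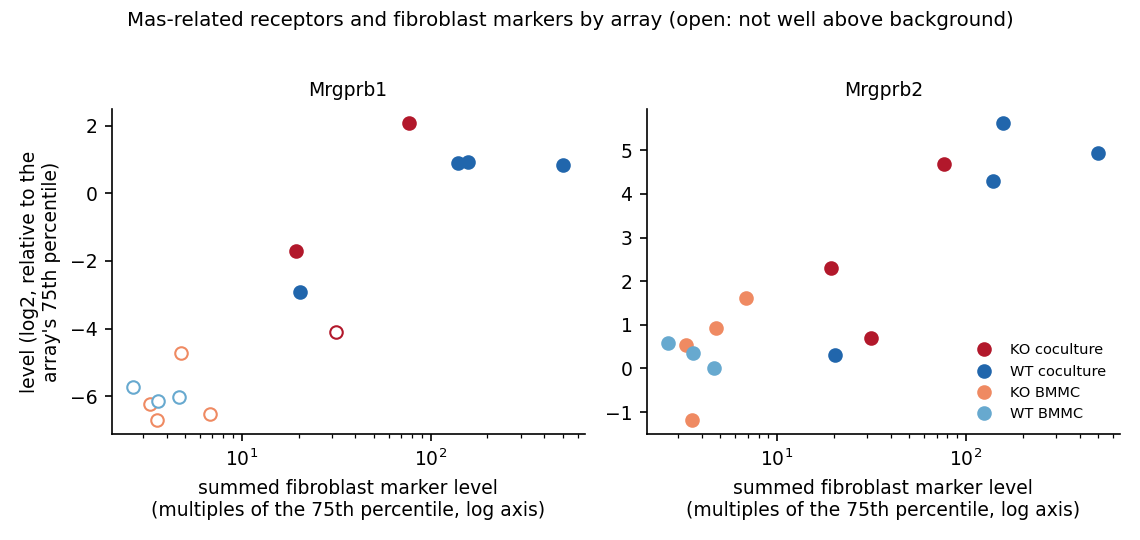
Level of Mrgprb1 and of Mrgprb2 on each array (log2, relative to the array's 75th percentile) against the summed level of 25 fibroblast markers (multiples of the 75th percentile, log axis); open points were not well above background. The 4 arrays with sums of 77.0 to 503 hold the highest levels of both receptors, and the 7 BMMC arrays lie at sums of 2.67 to 6.84.

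The promoter windows of both Mas-related receptors are printed because the 2 genes moved together. They run from 250 bases before to 50 bases after the gene's start, as given by RefSeq for GRCm38.p6, and capitals mark TGACTCA, the binding motif of AP-1.
Mrgprb1: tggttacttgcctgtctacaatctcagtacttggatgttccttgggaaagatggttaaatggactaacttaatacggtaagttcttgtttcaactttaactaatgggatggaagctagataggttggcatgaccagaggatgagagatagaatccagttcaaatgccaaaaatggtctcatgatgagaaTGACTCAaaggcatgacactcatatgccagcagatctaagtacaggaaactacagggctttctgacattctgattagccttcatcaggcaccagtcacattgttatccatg
Mrgprb2: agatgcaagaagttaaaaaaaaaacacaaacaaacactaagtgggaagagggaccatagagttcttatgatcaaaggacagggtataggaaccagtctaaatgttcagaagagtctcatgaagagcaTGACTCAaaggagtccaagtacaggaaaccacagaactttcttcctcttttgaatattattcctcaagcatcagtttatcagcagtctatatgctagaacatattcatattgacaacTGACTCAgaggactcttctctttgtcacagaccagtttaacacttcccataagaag
The Mrgprb1 window is chr7:48456293-48456592 and the Mrgprb2 window chr7:48558037-48558336, both on the minus strand of GRCm38.p6. TGACTCA was searched on both strands and occurs 1 time in the first and 2 times in the second, and also 1 time each in the windows of Adora3 and C3ar1, but not in those of Adora2b and C5ar1. Of 32851 promoter windows of this length, 5.2% hold it. The motif was chosen with these sequences in view, so that share is no test of the receptors. Mrgprb1 and Mrgprb2 are also neighbours of the same family, so their matches need not be independent. Downstream of the shared motif both windows also hold the 13-base run AAGTACAGGAAAC, which starts 24 bases before the start of Mrgprb1 and 107 bases before that of Mrgprb2. The E-box letters CACATG or CACGTG occur in neither window, against 20.4% of all windows, and the GATA letters AGATAA or TGATAA occur 1 time in that of Mrgprb2 and not in that of Mrgprb1, against 18.6% of all windows. A match in letters is a description of the sequence only. Adora2a was the member with no entry in the promoter table used.

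Of the adenosine receptors, Adora2a was higher and Adora2b lower after coculture, and the 3 probes named Adora3 did not agree on a call. Adora2a has 2 probes, and the brighter one, A_52_P240878, stands for the gene. It read 2.24, 2.14 and 1.88 in knockout cocultured cells and 1.98, 2.03, 2.07 and 2.24 in wild-type cocultured cells, against 0.81, 1.20, 1.57 and 1.17 in knockout BMMCs and 1.40, 1.23 and 2.06 in wild-type BMMCs. All knockout cocultured arrays lay above all knockout BMMC arrays, and in wild-type cells BMMC array 3 reached the cocultured range. Averaged over both genotypes Adora2a rose by 0.71 (SE 0.18, adjusted p = 0.0101, limma), a 1.63-fold difference, and in knockout cells by 0.90 (SE 0.25, adjusted p = 0.0330). In wild-type cells the difference was 0.52 (SE 0.25, adjusted p = 0.217). Without both cocultured arrays 3 these were 1.001 (adjusted p = 0.0184) in knockout cells and 0.52 (adjusted p = 0.175) in wild-type cells. The knockout call ended without knockout BMMC 1, 2 or 4 or knockout cocultured 1 or 2, at adjusted p of 0.0937, 0.0714, 0.0625, 0.120 and 0.0890. The averaged call held without any single array and was 0.76 (adjusted p = 0.00943) without both cocultured arrays 3, but it ended with median scaling (0.63, adjusted p = 0.0558) and with normexp background correction (0.46, adjusted p = 0.108). The dimmer probe, A_51_P387348, gave a like averaged difference of 0.69 with a larger error (SE 0.35, adjusted p = 0.157 over the probes kept), with levels of 0.78 to 1.58 in knockout cocultured cells and 0.23 to 2.49 in wild-type cocultured cells, against 0.06 to 1.06 in knockout BMMCs and 0.33 to 1.54 in wild-type BMMCs.

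Adora2b, the low-affinity adenosine receptor, varied more after coculture than before it. Its levels were 2.04, 1.48 and -0.52 in knockout cocultured cells and -1.19, 2.17, 3.14 and 1.61 in wild-type cocultured cells, against 2.84, 2.70, 2.77 and 3.63 in knockout BMMCs and 3.83, 2.14 and 2.88 in wild-type BMMCs. Knockout cocultured arrays all lay below knockout BMMC arrays. In wild-type cells the groups overlapped, with cocultured array 1 far below and array 3 inside the BMMC range. Averaged over both genotypes Adora2b fell by 1.75 on the log2 scale (SE 0.61, adjusted p = 0.0473, limma), close to the threshold. That call ended without any one of 10 arrays, namely the 7 BMMC arrays, wild-type cocultured 4 and knockout cocultured 2 and 3, and the highest adjusted p was 0.113, without wild-type BMMC 1. It ended also with slide as a fixed block (adjusted p = 0.0680), but not with slide as a random block (adjusted p = 0.0377). Without both cocultured arrays 3 the difference was -1.66 (adjusted p = 0.0363). Within one genotype it was -1.99 (SE 0.87, adjusted p = 0.144) in knockout cells and -1.51 (SE 0.87, adjusted p = 0.299) in wild-type cells, and the knockout difference passed without wild-type cocultured 1, at an adjusted p of 0.0453. Without both cocultured arrays 3 these were -1.23 (adjusted p = 0.274) in knockout cells and -2.08 (adjusted p = 0.0713) in wild-type cells.

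**Figure D3:**
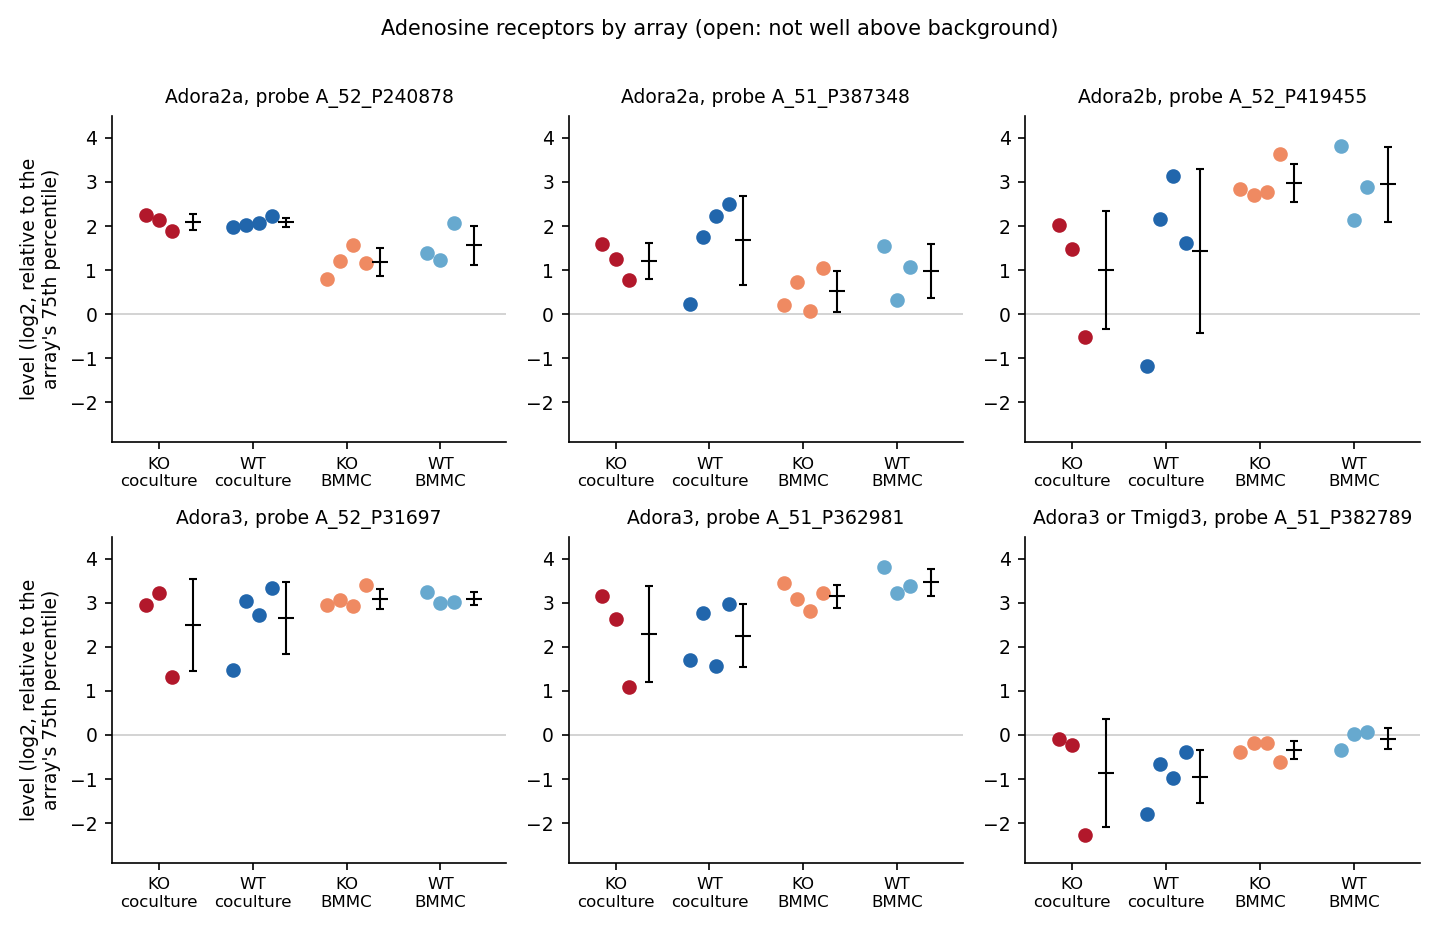
Levels of the 6 probes named Adora2a, Adora2b or Adora3 on each array (log2, relative to the array's 75th percentile), with the mean and SD of each group. All points were well above background; for Adora2a on probe A_52_P240878 all BMMC points except that of wild-type BMMC 3 lie below the cocultured ones, and the lowest points of Adora2b and Adora3 belong to wild-type cocultured array 1 and knockout cocultured array 3, with wild-type cocultured array 3 also low on probe A_51_P362981.

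The name Adora3 is carried by 3 probes in the scanner files, and one of them has another name today. The accession of probe A_51_P382789 belongs to Tmigd3 in the table of RefSeq genes, a gene at the same locus. That other name rests on the accession, and a probe under each name is printed here.
Adora3 A_52_P31697: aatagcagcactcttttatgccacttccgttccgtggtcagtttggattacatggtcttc
Tmigd3 A_51_P382789: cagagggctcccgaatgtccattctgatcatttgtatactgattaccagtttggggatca
The first lies at chr3:105710334-105710393 on the plus strand of mm9. The second spans chr3:105721698-105722939, 1242 bases for a 60-base probe, so its match is split in the genome. The third, A_51_P362981, lies at chr3:105711422-105711481. Probe A_52_P31697, which stands for Adora3, read 2.94, 3.23 and 1.31 in knockout cocultured cells and 1.48, 3.04, 2.72 and 3.34 in wild-type cocultured cells, against 2.95, 3.06, 2.92 and 3.41 in knockout BMMCs and 3.26, 2.99 and 3.02 in wild-type BMMCs. One cocultured array of each genotype was low, and the other cocultured arrays read 2.72 to 3.34, against 2.92 to 3.41 in the BMMCs. The averaged difference of -0.51 did not pass (SE 0.34, 95% confidence interval -1.24 to 0.21, adjusted p = 0.278, limma), and it was -0.23 (adjusted p = 0.575) without both cocultured arrays 3. Within one genotype it was -0.59 in knockout cells and -0.44 in wild-type cells (adjusted p = 0.442 and 0.628, limma). Without those arrays these were 0.004 and -0.46 (adjusted p = 0.996 and 0.460). Probe A_51_P362981 read 3.16, 2.64 and 1.08 in knockout cocultured cells and 1.70, 2.76, 1.57 and 2.97 in wild-type cocultured cells, against 3.46, 3.09, 2.82 and 3.22 in knockout BMMCs and 3.80, 3.21 and 3.37 in wild-type BMMCs. On this probe every wild-type cocultured array lay below every wild-type BMMC array, and the averaged difference of -1.03 passed in the fit of all probes kept (SE 0.33, adjusted p = 0.0334). Without both cocultured arrays 3 it was -0.61 and did not pass (adjusted p = 0.0726). The Tmigd3 probe averaged -0.86 ± 1.22 in knockout cocultured cells and -0.95 ± 0.61 in wild-type cocultured cells, against -0.33 ± 0.20 in knockout BMMCs and -0.08 ± 0.23 in wild-type BMMCs, a difference of -0.70 that did not pass (adjusted p = 0.138), and of -0.34 without both cocultured arrays 3 (adjusted p = 0.286). Across arrays the level of Adora3 correlated with that of Adora2b at r = 0.832 and with that of Mrgprb1 at r = -0.596 (14 arrays, a description), and at 0.812 and -0.419 over the 12 arrays without cocultured arrays 3.

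The complement receptors showed no called difference. C3ar1, the receptor of C3a, was well above background on all arrays and was read by 2 probes. On A_51_P282557, which stands for the gene, its levels were -0.15, -0.30 and -0.07 in knockout cocultured cells and -0.70, -0.83, 0.95 and -1.13 in wild-type cocultured cells, against -1.03, -1.07, -0.02 and -0.45 in knockout BMMCs and -0.88, -0.98 and -0.24 in wild-type BMMCs. Groups overlapped throughout, and wild-type cocultured array 3 was the highest of all 14. The averaged difference was 0.37 (SE 0.31, 95% confidence interval -0.31 to 1.05, adjusted p = 0.413, limma), and 0.12 without both cocultured arrays 3. Within one genotype it was 0.47 in knockout cells and 0.27 in wild-type cells (adjusted p = 0.520 and 0.770, limma). Without those arrays these were 0.42 and -0.19 (adjusted p = 0.364 and 0.714), so the wild-type sign changed. On the dimmer probe, A_52_P81345, the levels were -1.24 to -1.11 in knockout cocultured cells and -2.43 to -0.03 in wild-type cocultured cells, against -1.92 to -1.44 in knockout BMMCs and -2.45 to -1.45 in wild-type BMMCs. There the knockout groups did not overlap, yet the knockout difference of 0.52 did not pass (SE 0.46, adjusted p = 0.484 over the probes kept).

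C5ar1, the receptor of C5a, was well above background on 1 of 14 arrays, wild-type cocultured array 3, at a level of -3.00. Elsewhere it read -6.27 to -4.16 in knockout cocultured cells and -6.07 to -4.88 in the other wild-type cocultured arrays, against -6.36 to -4.87 in knockout BMMCs and -6.26 to -5.87 in wild-type BMMCs. The lowest signal that counted as well above background was -4.49 to -2.72 depending on the array, so levels below it are bounds, and no fold is given. The gene failed the filter on dim probes and was not tested with the others. Macrophage markers were well above background in 6 to 10 of 13 cases in knockout cocultured cells and 8 to 10 in wild-type cocultured cells, against 6 to 11 in knockout BMMCs and 5 to 11 in wild-type BMMCs. Their summed level was 6.48 to 10.6 in knockout cocultured cells and 7.67 to 14.05 in wild-type cocultured cells, the highest on array 3, against 7.01 to 18.2 in knockout BMMCs and 4.20 to 65.6 in wild-type BMMCs, and their part in the C5ar1 signal was not tested. The second C5a receptor, C5ar2, which binds C5a without coupling to G proteins, was named after its values were seen. Its levels were -0.93 to 1.01 in knockout cocultured cells and -1.41 to 1.62 in wild-type cocultured cells, against 1.71 to 2.49 in knockout BMMCs and 2.83 to 3.63 in wild-type BMMCs. It fell by 2.27 on the log2 scale averaged over both genotypes (SE 0.46, adjusted p = 0.00271).

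**Figure D4:**
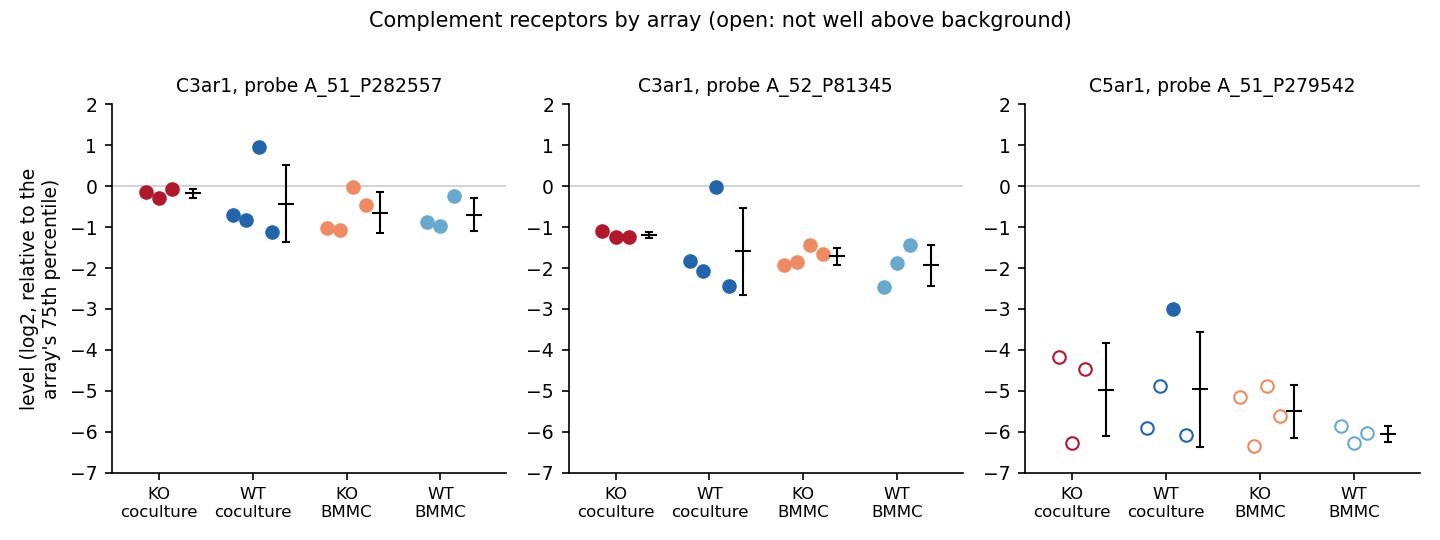
Levels of the 2 C3ar1 probes and the C5ar1 probe on each array (log2, relative to the array's 75th percentile), with the mean and SD of each group. Open points were not well above background; only wild-type cocultured array 3 is filled for C5ar1, at -3.00, and the same array is the highest for both C3ar1 probes.

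Of the 7 receptors 6 were tested, with Mrgprb1 among them only through its signal in cocultured cells. In wild-type cells 1 of the 6 rose (Mrgprb1) and 0 fell, where 12.8% of all 15848 genes were called, 6.48% higher and 6.34% lower. In knockout cells 2 rose (Mrgprb1 and Adora2a) and 0 fell, where 14.7% of genes were called, 8.56% higher and 6.09% lower. Averaged over both genotypes 3 rose (Mrgprb1, Mrgprb2 and Adora2a), 1 fell (Adora2b) and 2 did not pass, where 28.9% of genes were called, 15.4% higher and 13.5% lower. Of the genes called, 53.3% were higher averaged over both genotypes, against 43.0% with median scaling; 58.4% were higher in knockout cells and 50.6% in wild-type cells, against 28.8% and 71.8% with the authors' deposited normalized values. By readings, whether or not above background, groups did not overlap for 1 receptor of 6, which was higher in wild-type cells (Mrgprb1), where 25.6% of genes did not overlap, 11.6% higher and 13.9% lower. In knockout cells 2 were higher (Mrgprb1 and Adora2a) and 1 lower (Adora2b), where 28.5% of genes did not overlap, 17.1% higher and 11.4% lower. In the exact two-sided permutation test of culture state within genotype (all assignments, run on all 11 probes), 5 probes had p under 0.05 before any adjustment. The other probes of the array were not put through this test. No share over all probes stands beside that count, so it does not set the receptors apart from other genes. The permutation p was 0.000816 for Mrgprb1, the smallest this test can give, on readings of which those in BMMCs were not above background. The others were Mrgprb2 at 0.0171, Adora2a A_52_P240878 at 0.00245, Adora2b at 0.0114 and Adora3 A_51_P362981 at 0.00653.

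**Figure D5:**
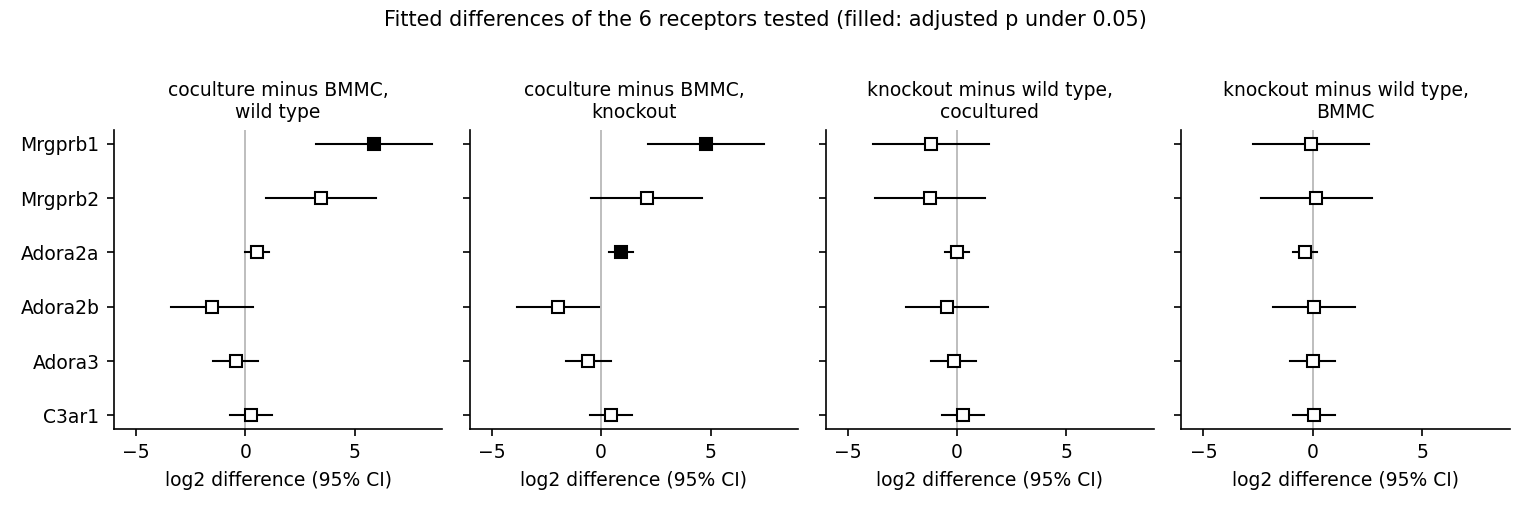
Fitted log2 differences of the 6 receptors tested (squares) with 95% confidence intervals (lines), for coculture minus BMMC in each genotype and for knockout minus wild type in each culture. Filled squares passed an adjusted p of 0.05, which were Mrgprb1 in both genotypes and Adora2a in knockout cells; all genotype squares are open.

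Between genotypes 0 of 6 receptors was called in either culture, where limma called 0 of 15848 genes (0% each). Before coculture 0 of the 6 had an unadjusted p under 0.05, where 1.07% of genes did, and the largest difference was -0.37 for Adora2a (95% confidence interval -0.92 to 0.17). In cocultured cells 0 of the 6 had an unadjusted p under 0.05, where 3.84% of genes did. Mrgprb1 differed there by -1.19 (95% confidence interval -3.84 to 1.47, adjusted p = 0.816) and Mrgprb2 by -1.22 (SE 1.17, adjusted p = 0.814). Slides that held both genotypes gave opposite signs, with Mrgprb2 at -3.60 on slide 2 and 4.39 on slide 4. Mrgprb1 was at least 32.2-fold lower on slide 2 on the knockout array, where it was not above background, than on the wild-type array, and on slide 4 its difference was 4.99. Adora2b was at -3.66 on slide 4 and above 0 on slide 2. Without the cocultured arrays of slide 4 the difference was -3.80 (adjusted p = 0.00443) for Mrgprb1 and -3.45 (adjusted p = 0.00940) for Mrgprb2. Adora2a then differed by 0.10 (adjusted p = 0.810), Adora2b by 0.89 (0.457), Adora3 by 0.47 (0.466) and C3ar1 by 0.66 (0.180). With those arrays these were 0.01, -0.44, -0.15 and 0.26, so the signs of Adora2b and Adora3 changed. Without them the test of a genotype difference in the coculture response gave -3.72 (adjusted p = 0.0255) for Mrgprb1 and -3.61 (adjusted p = 0.0377) for Mrgprb2, where 1923 of 15848 genes passed. With those arrays it gave -1.11 and -1.38 (adjusted p = 0.995 each), where 0% of genes passed and 0.789% had an unadjusted p under 0.05. Those 2 arrays were left out because they stood apart in these same data, and leaving them out took the number of genes called between genotypes after coculture to 3955, against 0 with them. The fibroblast marker sum was 19.4 and 31.6 on the 2 knockout arrays that remain and 140 to 503 on the 3 wild-type ones.

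Within slides, Mrgprb1 was at least 6.39-fold and 93.9-fold higher in knockout cocultured cells than in knockout BMMCs on slides 1 and 4, and on slide 2 neither knockout array was above background. It was at least 32.8-fold and 29.4-fold higher in wild-type cocultured cells than in wild-type BMMCs on slides 2 and 3. Mrgprb2 gave differences of 0.68, 0.17 and 5.86 in knockout cells on slides 1, 2 and 4 and of 3.93 and 5.26 in wild-type cells on slides 2 and 3. Adora2b was below 0 on all of them, from -4.15 to -0.80, and Adora2a probe A_52_P240878 above 0, from 0.07 to 1.43. The dimmer Adora2a probe, A_51_P387348, was below 0 in 2 of these 5 comparisons, at -0.28 in knockout cells on slide 4 and -0.10 in wild-type cells on slide 2, and reached 1.37.

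The related genes were read from lists of each pathway, in coculture averaged over both genotypes, where 28.9% of all genes were called, and 36.8% without both cocultured arrays 3. Each gene named from these lists as risen or fallen stayed called with the same sign without those 2 arrays. Of 23 listed Mas-related receptors beside these 2, 11 were on the array and 7 were tested, of which 2 rose, 0 fell and 5 did not pass (median -0.07, beside 0.05 for all genes), with the same counts without those arrays. Mrgprb3 rose by 3.00 (adjusted p = 0.0312) and was at least 12.9-fold higher in wild-type cocultured cells than in wild-type BMMCs, where it was on no array well above background, although the wild-type difference itself did not pass (adjusted p = 0.0887). Its levels were -2.22, -4.12 and 1.38 in knockout cocultured cells and 0.33, 0.93, -3.71 and 1.54 in wild-type cocultured cells, so the same 4 arrays were high as for Mrgprb2. Mrgprf, an orphan receptor of the same superfamily, rose by 2.48 (adjusted p = 0.0211). It was detected above background on 1 knockout and 3 wild-type cocultured arrays and on no BMMC array. Against the lowest signal well above background it was at least 2.24-fold higher in wild-type cocultured cells, and in knockout cells the bound showed no higher level. The wild-type bound includes a cocultured reading that was itself not above background. Like Mrgprb1, both Mrgprb3 and Mrgprf passed the filter on dim probes only through cocultured arrays.

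Of 15 tested genes that form, move or break down adenosine, with the Adora1 receptor among them, 5 rose, 4 fell and 6 did not pass (60% called, median 0.51, beside 0.05), and 7 rose and 5 fell without those arrays. Adk, the kinase that returns adenosine to AMP, rose by 1.23 (adjusted p = 0.000526), and Panx1, a channel that releases ATP, rose by 2.12 (adjusted p = 0.000655). Slc29a2, an equilibrative nucleoside transporter, fell by 2.56 on the log2 scale (adjusted p = 0.000505) and was on no cocultured array well above background. It was at least 1.33-fold lower in knockout cocultured cells than in knockout BMMCs and at least 3.28-fold lower in wild-type cocultured cells than in wild-type BMMCs. The knockout bound includes a BMMC reading that was itself not above background. Entpd1, the ectonucleotidase CD39 that hydrolyses ATP and ADP, and Adora1 were picked after their values were seen, with differences of -2.76 (adjusted p = 0.000790) and 0.67 (adjusted p = 0.00975).

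Of 27 tested complement genes, 7 rose, 2 fell and 18 did not pass (median 0.27), and the 33.3% called lay near the share of all genes. The counts were the same without cocultured arrays 3. C3, the precursor of C3a, rose by 6.22 (adjusted p = 5.80e-05), with a signal clear of background on all 14 arrays. C1ra, a protease of the C1 complex, was at least 7.81-fold higher in knockout cocultured cells than in knockout BMMCs and at least 33.2-fold higher in wild-type cocultured cells than in wild-type BMMCs. Masp1, a protease of the lectin pathway, was at least 5.05-fold and 14.3-fold higher in the same 2 comparisons. C1ra and Masp1 were on no BMMC array well above background, so they too passed the filter only through cocultured arrays. The fibroblast markers given above rose on the same cocultured arrays. Serpinh1, a collagen chaperone, was at least 137-fold higher in knockout cocultured cells than in knockout BMMCs, where it was on no array well above background. Of 23 fibroblast markers tested, 20 rose and 0 fell (21 and 0 without cocultured arrays 3), and their part in the complement values was not tested. At most 6 of the 25 listed were well above background on any BMMC array. Many thus passed the filter only with the help of cocultured arrays, so this split was in part set by the filter.

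Downstream genes moved in both directions. Of 40 tested genes of G protein signalling, 7 rose, 6 fell and 27 did not pass (32.5% called, median 0.24), and 9 rose and 7 fell without cocultured arrays 3. Among the genes called were Gna13, a G protein alpha subunit (1.05, adjusted p = 0.000852), Plcb1, a phospholipase C (-2.54, adjusted p = 2.77e-05), and Pde4a, which degrades cyclic AMP (-1.57, adjusted p = 6.28e-05). Of 17 genes of receptor desensitisation 3 rose, 3 fell and 11 did not pass (35.3% called, median -0.02), and 4 rose and 2 fell without those arrays. The 3 that rose were regulators of G protein signalling that speed GTP hydrolysis, Rgs16 (4.90, adjusted p = 1.12e-05), Rgs12 (0.93, adjusted p = 0.00708) and Rgs1 (1.82, adjusted p = 0.00944). Rgs16 was at least 8.92-fold higher in knockout cocultured cells than in knockout BMMCs, where it was on no array well above background, so it passed the filter through other arrays. Of 25 other G protein-coupled and nucleotide receptors of mast cells 5 rose, 6 fell and 14 did not pass (44% called, median -0.11), and 3 rose and 6 fell without those arrays. P2ry1, a receptor of ADP, fell by 1.91 on the log2 scale (adjusted p = 1.30e-05), Cx3cr1, the receptor of fractalkine, by 3.53 (adjusted p = 0.000295) and S1pr4, a sphingosine 1-phosphate receptor, by 1.64 (adjusted p = 0.000961).

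Genes with the most similar pattern over the 14 arrays were named for each receptor tested, as a description in which all 14 arrays and the split between cultures are shared. Mrgprb1 was most like Tslp (r = 0.977), Tmbim1 (0.971) and Parvb (0.969). Mrgprb2 was most like Mrgprb3 (0.992), Tgfb2 (0.965) and the protease gene Mcpt1 (0.936). Adora2a was most like Mc3r (0.950), Urah (0.932) and Ube2q2 (0.928), and Adora2b most like Tbc1d9b (0.937), Fam117a (0.933) and Idnk (0.926). Adora3 was most like Socs5 (0.939), Ganc (0.937) and Pgghg (0.932), and C3ar1 most like Ddx50 (0.938), Lims1 (0.889) and Il18rap (0.872). Over the 12 arrays without knockout and wild-type cocultured 3 these pairs correlated at 0.778 to 0.995.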

How the data were processed

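The arrays were Agilent mouse whole-genome arrays labelled in 1 colour with Cy3 from 450 ng of total RNA. Spots were quantified by the authors as intensity values in Agilent Feature Extraction 9.5.1.1, per the submitters' processing notes. Per the file headers, detrending was switched on and no separate background correction was applied. The well-above-background, saturation and outlier flags are those of the scanner software, and probe positions are on mm9, per the file headers. Another deposited file, annotated with gene names, holds the same intensity values and a normalized form of them, equal to the raw values less a constant for each array (67 to 172 units, within 0.5 units over 25126 matched probes). Its other settings are not given in the sources used here. It holds 10 of the 11 receptor probes and was used as an alternative only, floored at 10 units. On each array 59.0% to 59.8% of its normalized values were below 0 and so took the floor, which limits what this alternative can show.

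Each processed signal was divided by the 75th percentile of its array and then taken to log2. Control spots and outlier spots, 74 to 326 per array, were left out, and spots of 1 probe were averaged. RefSeq gave the names of 24844 probes through the accession and of 7855 through a symbol or synonym, and the other 8475 are called as in the scanner files. The filter asked for at least 3 arrays well above background, and 380 probes with a missing value were dropped. The brightest probe stood for a gene. The 4 groups entered 1 two-sided limma fit (limma 3.58.1, R 4.3.3, data.table version 1.17.8), with Benjamini-Hochberg adjustment over all genes. Other probes were read from a fit of all probes kept. Where a group was on no array well above background, the fold is a lower bound, computed against the lowest signal well above background on each array. All readings of the other group entered that bound as they were, also any not above background. The receptors, the lists and the tests were chosen with earlier results of these data known. The rule for naming genes took the 7 receptors, from each list up to 3 genes that passed with the lowest adjusted p in the averaged coculture comparison, the 3 genes most correlated with each receptor, Pla2g3, Kit and Fcer1a. The motifs were chosen with the sequences in view. The fit was also run on simulated arrays of independent normal noise. These held no slide effects, background floor or outlying arrays, so that run does not bear on such features. The number of arrays limits the precision.

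Same-numbered knockout and wild-type BMMC arrays had correlated deviations from their group means (r = 0.197, 0.499 and 0.487 for numbers 1 to 3). These arrays also share a slide, so pairing by number and by slide cannot be told apart there. For equal numbers in the other comparisons r was -0.547 to 0.122. The alternatives were other background corrections, scalings and filters, slide or number as a block, the mean of a gene's probes, and leaving out each array or both cocultured arrays of slide 4.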

Additional observations from a re-analysis of the deposited data

Results flagged for a closer look

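Mrgprb1 on wild-type cocultured array 3 lay at -2.92, against 0.84 to 0.91 on the other 3 arrays of its group. Adora2b on knockout BMMC array 4 lay at 3.63, against 2.70 to 2.84 on the other 3. In both, the gap to the nearest array was larger relative to the group's range than Dixon's 95% critical value for 4 samples. The check covered 22 groups of 4 arrays, and chance alone gives about 1 in 20.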

How the results depend on the processing

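Mrgprb1 in wild-type cells also lost its call with the authors' normalized values (2.49, adjusted p = 0.370), where its BMMC readings take the floor. Its averaged call ended with the authors' values alone (adjusted p = 0.180); with 7 arrays required above background it was not tested. No called difference reversed. Receptors called in wild-type cells numbered 0 with normexp, the authors' values or 7 arrays required, and 2 without both cocultured arrays of slide 4, against 1. In knockout cells they numbered 1 with normexp, quantile or median scaling, no filter, 7 arrays required or the mean of probes, and 0 with the authors' values, against 2. Averaged over both genotypes the authors' values called 1 (Adora2a), against 4. Without both arrays of slide 4, 2 of 6 receptors were called between genotypes after coculture, where 3955 of 15848 genes were called. For the genotype difference in response 2 receptors were called, where 1923 of 15848 genes were. With those arrays each of these counts was 0. Leaving out 1 array at a time gave 1 to 2 calls in wild-type cells, 0 to 3 in knockout cells and 2 to 4 averaged. With the replicate number as a block the limma calls were 1 in wild-type cells, 0 in knockout cells and 2 averaged. The averaged adjusted p was then 0.0534 for Mrgprb2 and 0.0925 for Adora2b. BMMC genotypes, where equal numbers also share a slide, again gave 0. Over all genes, coculture called 2322 in knockout and 2031 in wild-type cells, against 893 and 875 with normexp, 664 and 829 with the authors' values, 1254 and 1342 with the block, and 1391 (knockout) with median scaling and 1396 (knockout) without a filter. Averaged, 4584 were called, against 2326 with normexp and 1698 with the authors' values. Without both arrays of slide 4 the counts were 4957 in knockout and 3657 in wild-type cells, and 1923 for the genotype difference. Single arrays moved them to 1058 to 3301 in knockout and 1112 to 2609 in wild-type cells. For knockout against wild-type BMMCs quantile scaling called 1 gene and leaving out knockout BMMC 3 called 2, against 0. Median scaling moved the median log2 difference of all genes to -0.20 in wild-type coculture and 0.31 between cocultured genotypes, against -0.01 and 0.04. The cause of each change was not tested. Signal over background limits Mrgprb1 before coculture and C5ar1 throughout.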
